A study of Sus scrofa with 102 samples.

Results

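The genes of 5 enzymes of glycerolipid metabolism were followed in *Longissimus dorsi*, the loin muscle, of backcross pigs. They were *AGPAT9*, *GPAT4*, *AGPAT2*, *LPIN1* and *PNPLA2*, a set of 5 genes in a table whose annotation gives 2201 genes a probe with a symbol of their own. Of the set, 4 were taken by their symbol in that annotation. The probe of *AGPAT9* has no symbol there and was taken under the name used in the study. The 5 genes had 6 probes, because *PNPLA2* had a pair of them, and the probe with the higher mean stood for the gene. The study had singled out *LPIN1*, *GPAT4* and *AGPAT9* by genetic mapping of their expression in these same pigs, so their choice was not independent of the data, although sex, batch and weight played no part in the rule.

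The arrays held 1 muscle sample from each of 102 pigs, 55 females and 47 males, fed ad libitum. All were offspring of first-generation Iberian by Landrace boars and Landrace sows, so they share parents and were treated as independent without the pedigree, and neither parental breed was measured. They were slaughtered in 3 batches, with 11 females and 7 males in batch 3, 8 females and 6 males in batch 1, and 36 females and 34 males in batch 2. Age ranged from 171 to 184 days and carcass weight from 43.6 to 97.8 kg. Values are log2 intensities after GCRMA, a normalization that models background from probe sequence. Before deposit, the authors kept probes with enough values away from their median, so shares of all probes below are shares of variable probes, not of the whole array. Probes bind with different strength, so levels of different probes were not set against each other.

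Glycerolipids are built on a glycerol phosphate backbone. *GPAT4* and *AGPAT9*, also called *GPAT3*, encode acyltransferases of the endoplasmic reticulum that add the first fatty acid to glycerol 3-phosphate. *AGPAT2* encodes the acyltransferase that adds the next one and so makes phosphatidate, and in humans its loss causes a generalized lack of adipose tissue. *LPIN1* encodes lipin 1, a phosphatidate phosphatase that makes diacylglycerol and also acts with transcription factors in the nucleus. *PNPLA2* encodes adipose triglyceride lipase, which removes the first fatty acid from stored triglyceride. Muscle uses this pathway both for membrane phospholipids and for the droplets of triglyceride in its fibres.

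The labelled tissue was looked up by its markers, whose values depend on each probe and give no order. The troponin genes *TNNT1*, *TNNC1* and *TNNI1* averaged 14.20, 13.84 and 13.25 log2 units over the pigs. *ADIPOQ*, the adipokine that defines fat cells, averaged 2.95 ± 1.18 (SD, n = 102). The fat cell genes *FABP4* and *GPD1*, which muscle also expresses, averaged 10.60 and 11.30. In a piece of whole muscle, fewer cells of a type and less RNA per cell cannot be told apart. The *EIF1AY* probe, a Y-linked gene, went against the sex label on 3 arrays, and results without them are included among the alternatives. The labelling starts at the 3′ end of an RNA, so the actin control probe at the 5′ end minus the one in the middle is a common measure of RNA integrity. It averaged -1.32 ± 0.43 in batch 3 and -1.28 ± 0.30 in batch 1, against -0.80 ± 0.29 in batch 2 (SD, n = 18, 14 and 70), and -0.97 ± 0.38 in females, against -0.94 ± 0.41 in males (SD).

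The probes differed in how much they varied among pigs, which can also depend on how each probe binds. *LPIN1* and *PNPLA2* were the steadiest, with means of 11.88 ± 0.50 and 10.99 ± 0.47 (SD, n = 102) and a 5.37-fold and 5.43-fold range between the lowest and the highest pig. *AGPAT2* averaged 5.53 ± 0.91 with a 17.3-fold range, and *GPAT4* averaged 5.04 ± 0.82 with a 22.5-fold range. *AGPAT9* averaged 5.91 ± 0.93 and spanned a 52.1-fold range. The second probe of *PNPLA2* averaged 5.14 ± 1.85 and ranged from 2.16 to 8.35, and its SD exceeded that of 99.6% of all probes. Sex, slaughter batch and carcass weight together accounted for 47.2% of the variance of *AGPAT2*, 32.0% of *GPAT4*, 26.9% of *AGPAT9*, 19.8% of *PNPLA2* and 9.38% of *LPIN1*, beside a median of 35.3% over all probes.

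**Figure D1:**
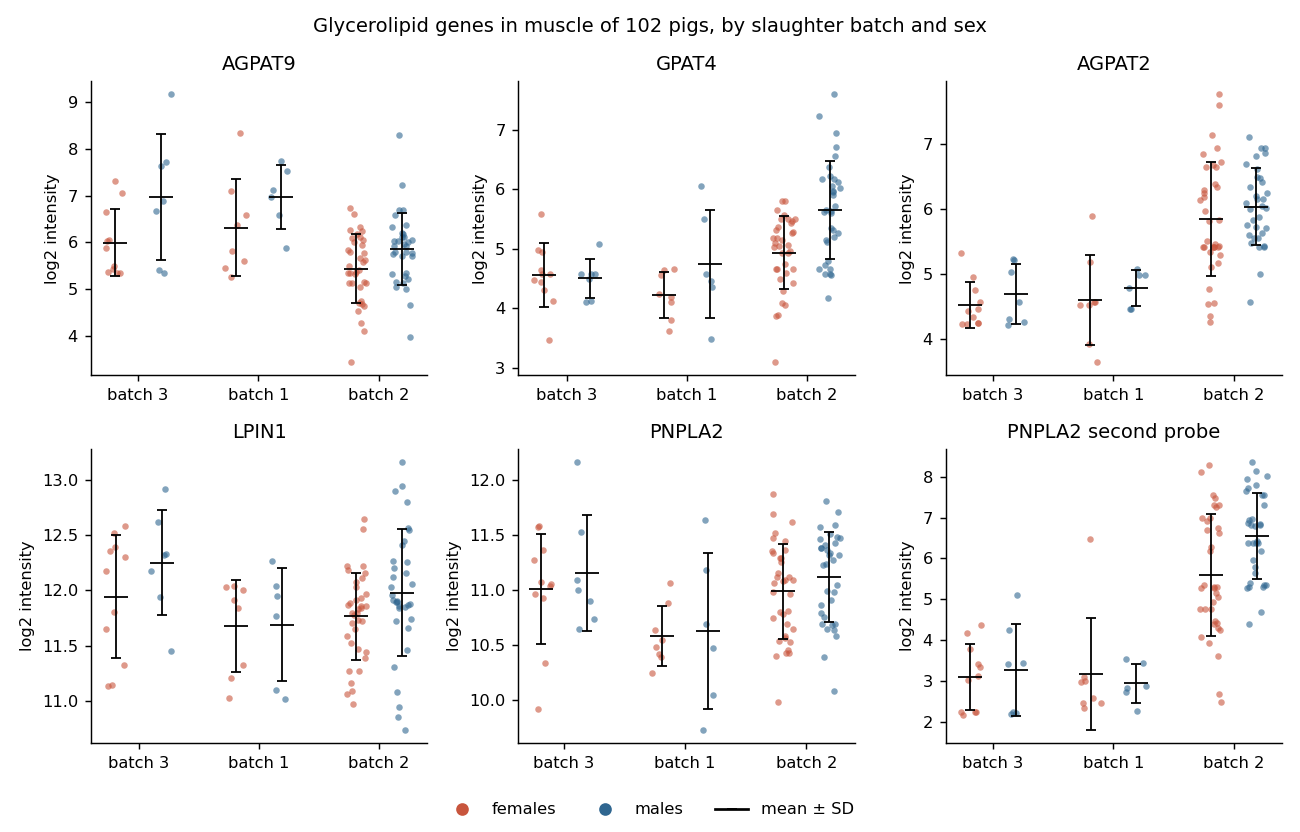
Each panel plots the log2 intensity (y axis) of 1 probe in every pig, by slaughter batch (x axis), with females left of males and black bars for the mean ± SD of each group. *AGPAT2* and the second *PNPLA2* probe sit low in batches 3 and 1 and high in batch 2, *AGPAT9* shows the opposite order, and males sit above females for *GPAT4* in batch 2.

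The sex comparison asked whether females and males of the same batch and carcass weight differed. Both glycerol phosphate acyltransferases were lower in females, and the other 3 of the 5 genes did not pass the test. *GPAT4* ranged from 3.10 to 5.81 with a median of 4.67 in females, and from 3.49 to 7.59 with a median of 5.31 in males. The groups overlapped widely, but the highest female lay far below the highest male. Its means were 4.75 ± 0.62 in 55 females and 5.37 ± 0.90 in 47 males (SD), and with batch and weight in the limma model the difference was -0.56 (SE 0.14), a ratio of 0.677 (adjusted p = 0.0014).

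*AGPAT9* ranged from 3.45 to 8.34 with a median of 5.60 in females, and from 3.98 to 9.15 with a median of 6.03 in males. Its means were 5.68 ± 0.83 in females and 6.17 ± 0.98 in males (SD), with a fitted limma difference of -0.51 (SE 0.16), a ratio of 0.700 (adjusted p = 0.0131). The other genes leaned the same way by less than the test could call. The limma difference was -0.18 (SE 0.10, adjusted p = 0.173) for *LPIN1*, with medians of 11.84 in females and 11.95 in males. For *AGPAT2* it was -0.14 (SE 0.13, adjusted p = 0.452), with medians of 5.41 in females and 5.70 in males. For *PNPLA2* it was -0.07 (SE 0.09, adjusted p = 0.608), with medians of 10.98 in females and 11.10 in males, and for its second probe -0.56 (SE 0.24, adjusted p = 0.0721), which passed in batch 2 alone (-0.84, adjusted p = 0.0319). Thus 2 of the 5 genes passed, both lower in females. Over all probes 26.1% passed and 14.4% were lower in females.

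Within single batches the sex difference of *GPAT4* was 0.13 (SE 0.23) in batch 3, -0.54 (SE 0.35) in batch 1 and -0.77 (SE 0.18) in batch 2, of which only the value in batch 2 passed the limma test (adjusted p = 0.000873). In batch 3 the 11 females had a median of 4.58, and the 7 males a median of 4.57. In batch 2 the medians were 5.05 in 36 females and 5.65 in 34 males. The difference in batch 3 exceeded that in batch 2 by 0.78 (SE 0.36, unadjusted p = 0.0337), which did not pass the limma test over all probes (adjusted p = 0.575). The sex difference of *AGPAT9* was negative in each batch, at -0.81 (SE 0.44) in batch 3, -0.62 (SE 0.46) in batch 1 and -0.40 (SE 0.18) in batch 2, and passed in none of them alone. The F test for a sex difference that changes with batch called 0% of all probes (425 at an unadjusted p under 0.05), and its adjusted p in limma was 0.689 for *GPAT4*.

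Neighbouring genes of the pathway were counted from lists that had been drawn up with earlier results of these data known. Over all probes 14.4% were lower in females, and counts that lie near this share are not read as results about a list. Of 7 measured genes of the glycerol phosphate and phosphatidate steps, 4 were lower in females and 0 were higher, with a median difference of -0.36 beside -0.03 over all probes. Besides *GPAT4* and *AGPAT9* these were *GK*, the kinase that makes glycerol 3-phosphate from glycerol (-0.42, SE 0.14, adjusted p = 0.0252 in limma), and *AGPAT3*, a further acyltransferase of the step of *AGPAT2* (-0.36, SE 0.09, adjusted p = 0.00103). Of 10 genes of triglyceride breakdown and the lipid droplet, 2 were lower in females. They were *ABHD5*, which encodes the coactivator of the lipase made from *PNPLA2* (-0.54, SE 0.13, adjusted p = 0.000705 in limma), and *PLIN2*, a droplet coat protein (-0.47, SE 0.15, adjusted p = 0.0158). Of 7 genes of phospholipid synthesis and remodelling, 2 were lower in females, *PISD*, the decarboxylase that makes phosphatidylethanolamine in mitochondria (-0.43, SE 0.09, adjusted p = 0.000376 in limma), and *LPCAT3*, a lysophospholipid acyltransferase (-0.35, SE 0.13, adjusted p = 0.0402).

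Markers of other cell types were measured alongside, where 26.1% of all probes passed between the sexes in either direction and 14.4% were lower in females. Fibroblast and progenitor genes were higher in females for 3 of 9 (*DCN*, *FAP* and *MFAP5*), and their summed log2 level ranged from 11.9 to 13.9 in females and from 11.7 to 13.8 in males. Endothelial genes were lower in females for 2 of 6 (*PECAM1* and *TEK*), with summed levels of 9.07 to 10.8 in females and 9.07 to 11.2 in males. Fat cell genes were higher in females for 1 of 6 (*ADIPOQ*), with summed levels of 11.5 to 13.5 in females and 11.7 to 13.3 in males. *ADIPOQ* averaged 3.20 ± 1.27 in females and 2.66 ± 1.00 in males (SD), near the low end of the table, where the lowest 1% of all values lie under 2.58. Slow fibre genes passed for 0 of 8. The part of these cell types in the sex differences of *GPAT4* and *AGPAT9* was not tested.

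**Figure D2:**
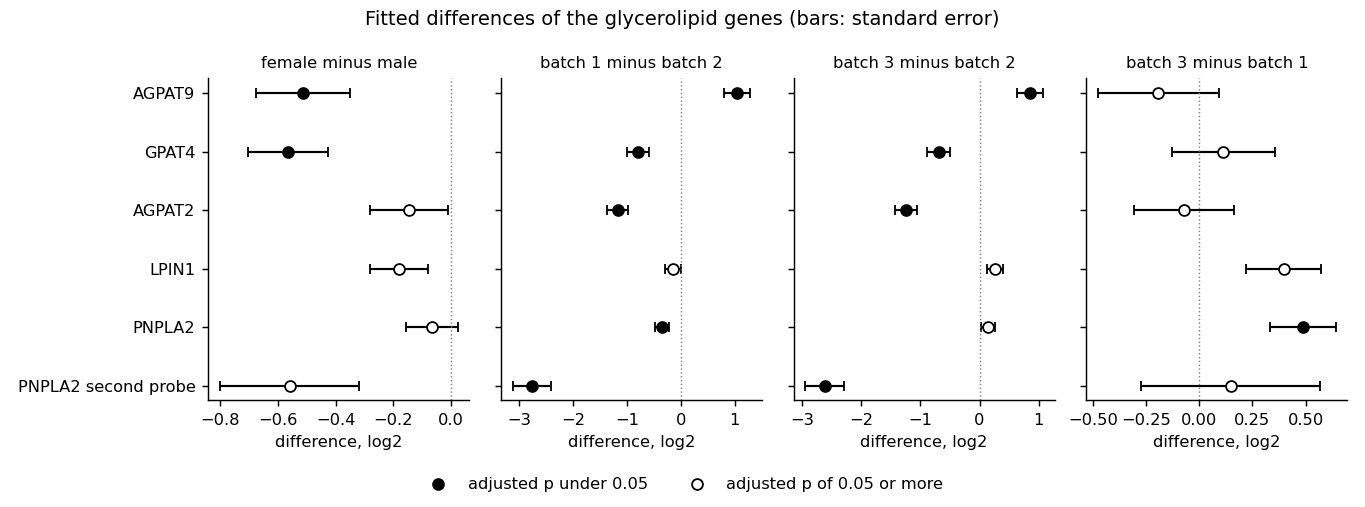
The 4 panels plot the fitted log2 difference (x axis, with its standard error as a bar) of each gene or probe (y axis) between the sexes and between the slaughter batches, from limma on all 102 pigs, and filled circles passed an adjusted p of 0.05. *AGPAT9* and *GPAT4* lie at -0.51 and -0.56 between females and males, and *AGPAT9* is the only gene above 0 in batch 1 against batch 2.

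The slaughter batches separated the 5 genes in opposite directions. *AGPAT2* and *GPAT4* were lower in batches 3 and 1 than in batch 2, *AGPAT9* was higher in both, and *PNPLA2* was lower in batch 1 alone. The limma F test over the batches passed for *AGPAT2* (adjusted p = 5.05e-11), *AGPAT9* (adjusted p = 1.2e-05), *GPAT4* (adjusted p = 5.33e-05) and *PNPLA2* (adjusted p = 0.00876) but not for *LPIN1* (adjusted p = 0.0734). These are 4 of 5 genes, where 86.6% of all probes passed, so the number is no result about the genes, and their directions and sizes are what can be described. The median difference over all probes was -0.17 in batch 3 and -0.11 in batch 1 against batch 2, and the differences below stand beside that shift.

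*AGPAT2* ranged from 4.22 to 5.33 with a median of 4.45 in batch 3, from 3.65 to 5.89 with a median of 4.57 in batch 1, and from 4.26 to 7.76 with a median of 5.93 in batch 2. The highest of the 18 pigs of batch 3 lay below the median of batch 2. Its limma difference was -1.25 (SE 0.18) in batch 3 and -1.18 (SE 0.20) in batch 1 against batch 2, which are ratios of 0.421 and 0.443 (adjusted p = 2.85e-09 and 2.16e-07). *GPAT4* had medians of 4.58 in batch 3 and 4.41 in batch 1, against 5.26 in batch 2, and the fitted limma differences from batch 2 were -0.69 (SE 0.19, adjusted p = 0.00065) in batch 3 and -0.80 (SE 0.21, adjusted p = 0.000323) in batch 1. Among all probes 45.3% were lower in batch 3 and 41.5% lower in batch 1.

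*AGPAT9* ranged from 5.35 to 9.15 with a median of 6.04 in batch 3, from 5.26 to 8.34 with a median of 6.59 in batch 1, and from 3.45 to 8.29 with a median of 5.76 in batch 2. No pig of batches 3 or 1 lay below 5.26, whereas the lowest pigs of batch 2 went down to 3.45. The limma difference from batch 2 was 0.85 (SE 0.22) in batch 3 and 1.04 (SE 0.24) in batch 1, ratios of 1.80 and 2.06 (adjusted p = 0.000359 and 7.68e-05). Among all probes 36.2% were higher in batch 3 and 32.7% higher in batch 1. With age in the model, the difference of batch 1 was 0.25 (SE 0.31, adjusted p = 0.499 in limma), and the pigs of batch 1 were younger, at 175.1 ± 3.37 days against 180.7 ± 1.67 days in batch 2 (SD).

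*PNPLA2* had medians of 11.05 in batch 3 and 10.51 in batch 1, against 11.10 in batch 2. The range of batch 1 was 9.72 to 11.64 and that of batch 2 was 9.98 to 11.87, so the groups overlapped. The limma difference was -0.35 (SE 0.13, adjusted p = 0.0142) in batch 1 and 0.14 (SE 0.12, adjusted p = 0.285) in batch 3 against batch 2, and batch 3 stood above batch 1 by 0.49 (SE 0.16, adjusted p = 0.021), a comparison in which 16.8% of all probes passed. The lower level in batch 1 did not hold after quantile normalization (-0.09, adjusted p = 0.512 in limma), with age added (-0.22, adjusted p = 0.294) or with the actin difference added (-0.22, adjusted p = 0.164). *LPIN1* had medians of 12.24 in batch 3 and 11.88 in batch 1, against 11.87 in batch 2, with limma differences from batch 2 of 0.26 (SE 0.14, adjusted p = 0.0769) and -0.14 (SE 0.15, adjusted p = 0.394). After quantile normalization batch 3 stood above batch 2 by 0.72 for *LPIN1* (adjusted p = 5.01e-07 in limma) and by 0.49 for *PNPLA2* (adjusted p = 0.000126), and *LPIN1* also passed with the actin difference added (0.43, adjusted p = 0.00933). Over all probes 81.5% passed between batches 3 and 2 and 74.2% between batches 1 and 2.

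Genes around them in the pathway, counted from the same lists together with the 5 genes themselves, also went both ways. Among all probes 36.2% were higher and 45.3% lower in batch 3 than in batch 2, and 32.7% and 41.5% in batch 1. Counts below that lie near these shares are not read as results about a list or a cell type. Of the 7 genes of the glycerol phosphate and phosphatidate steps, 2 were higher and 3 lower in batch 3 than in batch 2, the third lower one being *GPD1*, the cytosolic glycerol 3-phosphate dehydrogenase (-1.94, adjusted p = 2.67e-18 in limma). Of the 7 genes of phospholipid synthesis and remodelling, 2 were higher and 5 lower in batch 3 than in batch 2, and likewise 2 and 5 in batch 1. *PEMT*, which methylates phosphatidylethanolamine to phosphatidylcholine, was among the lower ones, at -2.05 in batch 3 and -1.71 in batch 1 (adjusted p = 4.27e-15 and 2.83e-10 in limma). Its means there were 2.68 ± 0.39 and 3.03 ± 0.80 (SD), near the low end of the table, where the lowest 1% of all values lie under 2.58. Whether such values lie above background is not known. Of the 10 genes of triglyceride breakdown and the lipid droplet, 2 were higher and 5 lower in batch 3, and 1 was higher and 5 lower in batch 1. *LIPE*, hormone-sensitive lipase, which acts after the product of *PNPLA2*, was lower in batch 1 (-1.68, adjusted p = 1.62e-05 in limma) and did not pass in batch 3 (-0.37, adjusted p = 0.291). Fast fibre markers were lower in batches 3 and 1 than in batch 2 for 2 of 2 genes, with summed log2 levels of 10.9 to 14.1, 11.2 to 14.9 and 12.7 to 15.5 in batches 3, 1 and 2. Slow fibre markers were higher for 4 of 8 and lower for 1 in batch 3, and higher for 3 of 8 in batch 1. Fibroblast and progenitor genes were higher for 4 of 9 and lower for 2 in batch 3, and higher for 6 and lower for 1 in batch 1, with summed levels of 11.7 to 13.9, 11.9 to 13.8 and 11.8 to 13.8 in batches 3, 1 and 2. Fat cell genes were lower for 3 of 6 in both and higher for 1 in batch 3, with summed levels of 11.5 to 12.9, 11.7 to 13.1 and 12.0 to 13.5 in batches 3, 1 and 2. Endothelial genes were lower for 2 of 6 in batch 3 and higher for 3 of 6 in batch 1 (9.12 to 10.7, 9.35 to 10.9 and 9.07 to 11.2), and macrophage genes were higher for 1 and lower for 2 of 5 in batch 3 and higher for 3 of 5 in batch 1 (6.79 to 8.65, 5.94 to 10.7 and 6.48 to 9.78). Whether these markers had a part in the batch differences was not tested. For RNA integrity the batch differences were refitted with the actin difference added, and its part was not tested beyond those fits. What else the pigs of a slaughter batch shared cannot be told apart from the batch.

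The probes of *PNPLA2* did not give the same picture. The second probe ranged from 2.16 to 5.10 with a median of 3.24 in batch 3, from 2.26 to 6.48 with a median of 2.86 in batch 1, and from 2.50 to 8.35 with a median of 6.32 in batch 2. Its limma difference from batch 2 was -2.62 (SE 0.33) in batch 3 and -2.77 (SE 0.36) in batch 1 (adjusted p = 1.31e-11 and 9.6e-11), so that in batch 3 it had the opposite sign to the standing probe. Of its values, 7 of 18 in batch 3, 4 of 14 in batch 1 and 1 of 70 in batch 2 fell in the lowest 1% of all values of the table (under 2.58), where none of the values of the 5 standing probes fell. Calls of signal over background were not used here, so it is not known whether those values lie above background, and no ratio is given. Once sex, batch and weight were taken out, the probes correlated positively over the 102 pigs (r = 0.484, rho = 0.450, permutation p = 1e-05 each, the smallest that 100000 permutations can give), with r between 0.427 and 0.505 in the 3 batches and 0.455 without the 2 pigs farthest from the median.

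The actin difference correlated with both probes. Over the residuals r was 0.609 for the second probe (rho = 0.630, permutation p = 1e-05, adjusted p = 6e-05 over 6 relations), with 0.354 in batch 3, 0.639 in batch 1 and 0.711 in batch 2. It was 0.213 for the standing probe (rho = 0.207, permutation p = 0.0326, adjusted p = 0.0391). *AGPAT2* followed the actin difference too, with r = 0.418 (rho = 0.497, permutation p = 2e-05, adjusted p = 6e-05), but the value was -0.14 within batch 3. *LPIN1* had r = 0.239 (rho = 0.168, permutation p = 0.0157, adjusted p = 0.0252), *AGPAT9* r = -0.237 (rho = -0.19, permutation p = 0.0168, adjusted p = 0.0252) and *GPAT4* r = 0.058 (rho = 0.059, permutation p = 0.559). Without the 2 pigs farthest from the median of the actin difference r lay at 0.607 for the second probe, 0.495 for *AGPAT2*, 0.232 for *LPIN1* and -0.15 for *AGPAT9*. With the actin difference in the model, *AGPAT2* stood lower than in batch 2 by less than without it, each time past the limma test. The difference was -0.83 in batch 3, beside -1.25 without it, and -0.80 in batch 1, beside -1.18.

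**Figure D3:**
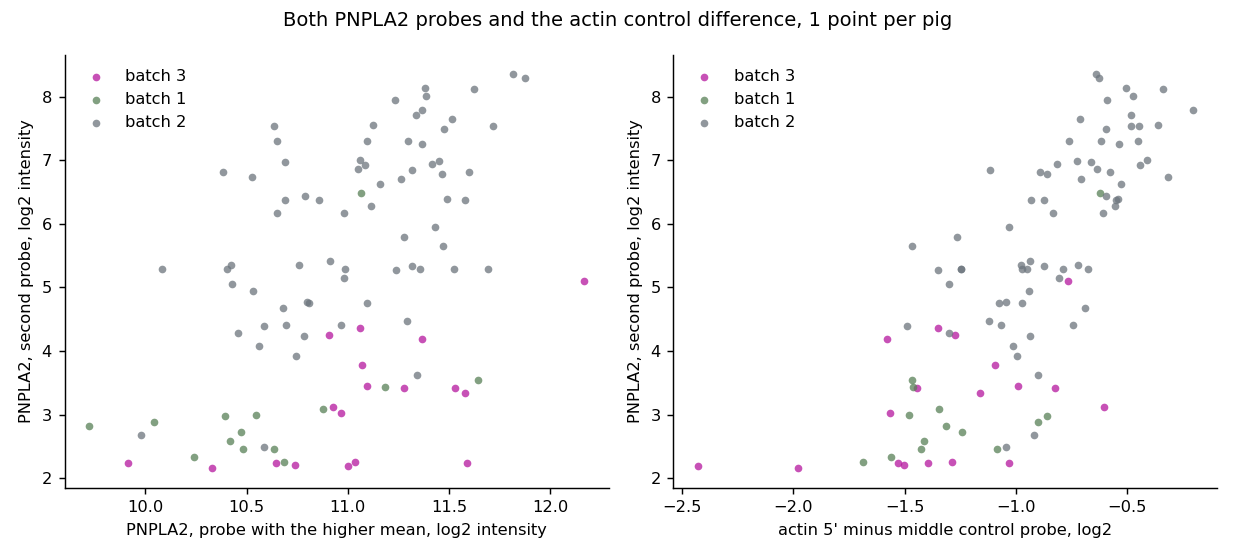
The log2 intensity of the second *PNPLA2* probe (y axes) is plotted for every pig against that of the standing probe (left) and against the actin 5′ minus middle difference in log2 (right), with batches in colour. The second probe lies mostly under 5 in batches 3 and 1, where the standing probe covers much the same range as in batch 2, and it climbs with the actin difference within batch 2.

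Carcass weight showed no slope that passed in limma, for these genes or for any probe (0% called, 589 at an unadjusted p under 0.05). *PNPLA2* came nearest, with 0.14 log2 units per 10 kg (SE 0.05, unadjusted p = 0.00463, adjusted p = 0.337) and values of 0.14, 0.15 and 0.13 within batches 3, 1 and 2. The slopes of the other genes lay between 0.00 and 0.09 per 10 kg. Age at slaughter, added to the model, gave *AGPAT9* a slope of -0.15 per day (SE 0.04, unadjusted p = 0.000335), which narrowly missed the threshold in limma (adjusted p = 0.0613), and -0.21 per day in batch 2 alone (adjusted p = 0.0508). In this fit on all pigs the age slopes of the other 4 genes had adjusted p-values of 0.451 and above in limma, and 0.312% of all probes passed. The weight slope of *LPIN1* in females exceeded that in males by 0.26 per 10 kg (SE 0.10, unadjusted p = 0.00783), but this did not pass (adjusted p = 0.724 in limma), nor did any probe (0% called, 292 at an unadjusted p under 0.05).

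Levels were then compared across pigs after sex, batch and weight had been taken out. Of the 10 pairs of genes, 6 passed with Benjamini-Hochberg adjustment over the pairs. The largest r was that of *AGPAT2* with *GPAT4* (r = 0.365, rho = 0.338, permutation p = 0.00019, adjusted p = 0.0019), with 0.240, 0.200 and 0.399 within batches 3, 1 and 2. *AGPAT2* also went with *PNPLA2* (r = 0.347, rho = 0.335, permutation p = 0.00047, adjusted p = 0.00235), though not in batch 3, where r was -0.00. With the second *PNPLA2* probe in place of the standing one, r with *AGPAT2* was 0.717 (adjusted p = 0.0005, 20000 permutations), above that of *AGPAT2* with *GPAT4*. That probe and *AGPAT2* both followed the actin difference (r = 0.609 and 0.418), and some values of the probe fell in the lowest 1%. The part of these in the correlation was not tested. *GPAT4* correlated with *AGPAT9* (r = 0.288, rho = 0.244, permutation p = 0.00331, adjusted p = 0.011) and with *PNPLA2* (r = 0.280, rho = 0.249, permutation p = 0.00445, adjusted p = 0.0111). Within batches 3, 1 and 2 these were 0.219, 0.408 and 0.291 for *AGPAT9* and 0.01, 0.503 and 0.303 for *PNPLA2*. The acyltransferase *GPAT4* was thus in 4 of the 6 pairs.

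*LPIN1* passed with 2 of the other genes. It correlated negatively with *AGPAT9* (r = -0.26, rho = -0.26, permutation p = 0.00763, adjusted p = 0.0153), with a negative value in every batch and both sexes. Its positive correlation with *GPAT4* (r = 0.256, permutation p = 0.00994, adjusted p = 0.0166) was not past the threshold by rank (rho = 0.177, adjusted p = 0.128), and was -0.01 in females and 0.426 in males, a difference that was not tested. Without the 2 pigs farthest from the median, r was 0.372 and 0.349 for *AGPAT2* with *GPAT4* and *PNPLA2*, 0.228 and 0.202 for *GPAT4* with *AGPAT9* and *PNPLA2*, and -0.25 and 0.217 for *LPIN1* with *AGPAT9* and *GPAT4*. In the limma fits over all 5448 other probes, 5 of these 6 pairs passed whichever gene was the covariate, and *LPIN1* with *AGPAT9* passed one way round only (adjusted p = 0.0335 and 0.0699). When the first 2 principal components of the residuals were also taken out, *LPIN1* and *GPAT4* had r = -0.27 (adjusted p = 0.0204, 20000 permutations), the opposite sign.

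Each gene was then set against all other probes. The share of probes that went with a gene in limma was 59.0% for *AGPAT2*, 51.5% for *GPAT4*, 28.4% for *LPIN1*, 24.7% for *PNPLA2* and 11.8% for *AGPAT9*. The first 2 principal components of the residuals held 18.0% and 11.5% of their variance, and *AGPAT2* correlated with the first at 0.736 and *GPAT4* with the second at 0.645. With both components in the model the number of related probes was 1259 for *AGPAT2*, where 3217 had been called, 72 where 2806 had been called for *GPAT4*, and 714 where 644 had been called for *AGPAT9*. The genes below are the named genes with the largest partial correlation r in each direction, 6 for each member. They were picked for the size of r in these same pigs, so their permutation p-values, at most 2e-05 each for r, are no separate support. Nor is a shared sign within the batches, which hold the same pigs. By rank the permutation p went up to 0.00304, for *HOXD10* with *AGPAT9*.

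For *AGPAT2* the closest were *SLC25A11*, the mitochondrial oxoglutarate and malate carrier (r = 0.811, adjusted p = 1.16e-20 in limma), *PEMT* of phosphatidylcholine synthesis (r = 0.809) and *TEAD4*, a transcription factor of muscle cells (r = 0.808). The largest negative values were for *CHMP1B*, a subunit of the ESCRT machinery (r = -0.67), *UFSP2*, a protease of the UFM1 system (r = -0.66), and *ATG4B*, a protease of autophagy (r = -0.64). The sign of all 6 was the same in every batch and passed with the 2 components added. *PEMT*, whose values lay near the low end in batches 3 and 1, had r = 0.430, 0.674 and 0.854 in batches 3, 1 and 2. A further gene of phospholipid synthesis, *PTDSS1*, which makes phosphatidylserine, had r = 0.769 with *AGPAT2*, and *LPCAT3* had r = 0.522. With *PEMT* they were the 3 of 7 measured genes of phospholipid synthesis and remodelling that passed, and the median r of the 7 was 0.11. Over all probes 59.0% passed in either direction, so the count is not read as particular to this list.

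The closest to *GPAT4* were *LMCD1*, a LIM domain cofactor (r = 0.781, adjusted p = 1.46e-18 in limma), *YWHAH*, a 14-3-3 adaptor protein (r = 0.749), and *NRAP*, an actin-binding protein of muscle (r = 0.739). The largest negative values were for *MEIS1*, a homeobox transcription factor (r = -0.68), *CXCL12*, a chemokine (r = -0.68), and *PPP1R3B*, a glycogen-targeting subunit of protein phosphatase 1 (r = -0.68). The sign of all 6 was the same in every batch, and 3 of them, the positive ones, passed with the 2 components added. Slow fibre genes went the same way as *GPAT4* for 7 of 8, with *MYL3* at r = 0.571 and *TNNC1* at r = 0.529. They did so for 6 of 8 with *PNPLA2*, *TNNI1* at r = 0.476, and for 5 of 8 with *AGPAT2*. Over all probes 51.5%, 24.7% and 59.0% passed with *GPAT4*, *PNPLA2* and *AGPAT2* in either direction. The count for *AGPAT2* lies near its share and is not read as particular to slow fibre genes.

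The closest to *PNPLA2* were *ACADVL*, the very long-chain acyl-CoA dehydrogenase of mitochondria (r = 0.598, adjusted p = 3.58e-07 in limma), *FLAD1*, which makes the flavin cofactor of such enzymes (r = 0.591), and *LIPE* (r = 0.573). *LIPE* held this in all batches, with r = 0.460, 0.724 and 0.576 in batches 3, 1 and 2, and in both sexes, with 0.55 in females and 0.59 in males. *ACADVL* was weaker in batch 3 (r = 0.153, beside 0.817 and 0.664 in batches 1 and 2). The largest negative values were for *STIM2*, a calcium sensor (r = -0.46), *RPS27A*, a ubiquitin and ribosomal protein fusion (r = -0.46), and *VKORC1L1*, a vitamin K epoxide reductase (r = -0.46). All 6 passed with the 2 components or the actin difference added.

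*LPIN1* had its largest correlation in size with *ACSL3*, an acyl-CoA synthetase of the endoplasmic reticulum and lipid droplet that activates long-chain fatty acids, and it was negative (r = -0.62, adjusted p = 5.74e-08 in limma), with -0.69, -0.61 and -0.60 in batches 3, 1 and 2. *MAGEH1* (r = -0.55) and *NEO1*, a receptor for netrins (r = -0.54), were also negative. On the positive side were *PUS1*, a pseudouridine synthase (r = 0.552), *PPARD*, the nuclear receptor that turns on fatty acid oxidation in muscle (r = 0.549), and *RETREG1*, a receptor for autophagy of the endoplasmic reticulum (r = 0.545). The sign of all 6 was the same in every batch, though *PUS1* had an r of only 0.046 in batch 1. With females alone 0 probes passed for *LPIN1* in limma, where 1505 passed with males alone.

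The closest to *AGPAT9* were *PDLIM1*, a PDZ and LIM domain protein of actin filaments (r = 0.541, adjusted p = 8.89e-06 in limma), *THBD*, thrombomodulin of the vessel wall (r = 0.503), and *GK*, which supplies the substrate of this acyltransferase (r = 0.501). *GK* was closer in batches 3 and 1 (r = 0.754 and 0.817) than in batch 2 (r = 0.244), a difference that was not tested. Over all pigs rho was 0.365, and r was 0.366 without the 2 pigs farthest from the median. The *GK* probe averaged 4.03, and only 8.83% of all probes had a lower mean. The largest negative values were for *THAP11* (r = -0.44), *SLC31A2*, a copper transporter (r = -0.43), and *HOXD10*, a homeobox gene (r = -0.43). In batch 2 alone 2 of the 6 passed, *PDLIM1* and *THBD*. Slow fibre genes went the same way as *AGPAT9* for 7 of 8, *TNNT1* at r = 0.428 and *PLN*, the calcium pump regulator phospholamban, at r = 0.420, while endothelial genes did so for 2 of 6. Over all probes 11.8% passed with *AGPAT9* in either direction.

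**Figure D4:**
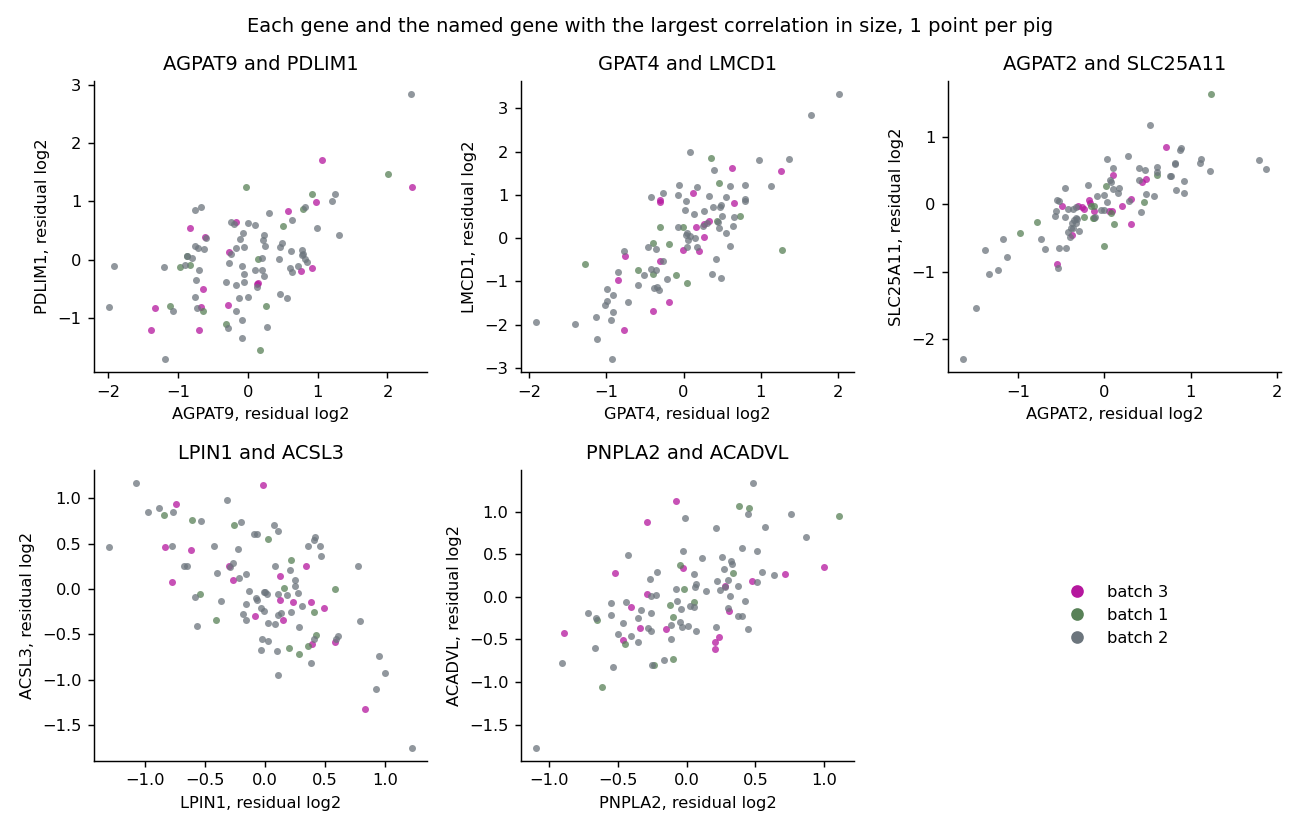
Each panel plots the residual log2 intensity of a gene (x axis) against that of the named gene with which its correlation was largest in size (y axis), 1 point for each of 102 pigs with batches in colour, after sex, batch and weight were taken out. The clouds of *AGPAT2* and *GPAT4* are narrow (r = 0.811 and 0.781), those of *PNPLA2* and *AGPAT9* wider (r = 0.598 and 0.541), and that of *LPIN1* slopes downwards (r = -0.62).

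Neighbours in the lipid pathways were counted next, and differences between the members in these counts were not tested. For *GPAT4*, 5 of 6 other genes of the glycerol phosphate and phosphatidate steps correlated positively and passed, and 6 of 10 genes of triglyceride breakdown and the lipid droplet did, led by *ABHD5* (r = 0.538) and *PLIN2* (r = 0.437), while *PNPLA4*, a relative of *PNPLA2*, passed with a negative value (r = -0.25). In either direction 51.5% of all probes passed. For *AGPAT2* the counts were 3 of 6 and 5 of 10, with *MGLL*, the monoglyceride lipase, at r = 0.49 and *GPD1* at r = 0.474, shares below the 59.0% of all probes. *AGPAT9* passed with 1 of the 10 genes of triglyceride breakdown, *LPL*, lipoprotein lipase (r = 0.464). Of the 6 other genes of the glycerol phosphate and phosphatidate steps, 2 passed with a positive value and 1, *GPD1*, with a negative one (r = -0.30). Over all probes 11.8% passed with *AGPAT9* in either direction, so the count in triglyceride breakdown lies near that share. *PNPLA2* passed with 1 of 9 other genes of triglyceride breakdown, which was *LIPE*, and had r = 0.03 with *ABHD5*, the gene of its coactivator, which was picked out after its value was seen. *LPIN1* passed with 2 of these 10 genes, *LIPE* (r = 0.279) and *ABHD5* (r = 0.292). Over all probes 24.7% passed with *PNPLA2* and 28.4% with *LPIN1* in either direction, so the shares of both in this list lie below those of all probes.

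Transcription factors of lipid metabolism were counted in the same way. For *LPIN1*, 7 of 12 correlated positively and passed and 0 did so negatively, with a median r of 0.33 beside -0.00 over all probes and 28.4% of probes called. They were led by *PPARD*, *KLF15*, a factor of the fasting response (r = 0.505), *FOXO1* (r = 0.443) and *PPARGC1A*, the coactivator of mitochondrial genes (r = 0.403). *UCP3*, a mitochondrial carrier induced by fasting, had r = 0.501 with *LPIN1*. These correlations were lower in females than in males, at 0.28 and 0.69 for *PPARD* and 0.22 and 0.66 for *KLF15*, and this difference was not tested. For *GPAT4*, 7 of 12 were positive and 1 negative, for *AGPAT2* 7 and 2, for *PNPLA2* 4 and 0, and for *AGPAT9* 0 and 1. Over all probes 51.5%, 59.0%, 24.7% and 11.8% passed with these 4 genes in either direction, so these counts are not read as particular to the factors.

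**Figure D5:**
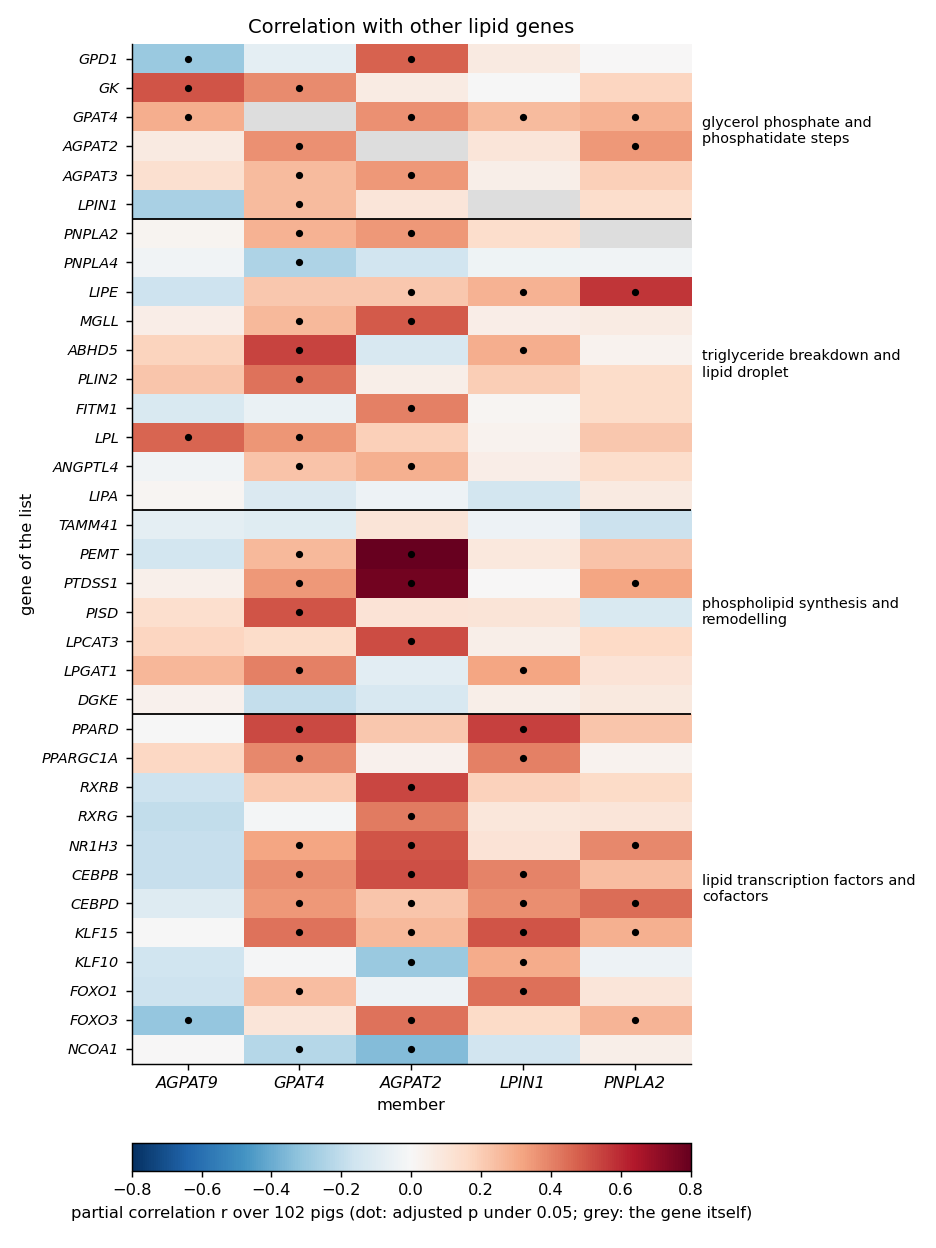
Rows are the measured genes of 4 lists that have a symbol in the annotation (y axis), so *AGPAT9* has a column but no row, columns are the members (x axis), colour is the partial correlation r over 102 pigs and a dot marks an adjusted p under 0.05 in limma. *AGPAT2* is darkest with *PEMT* and *PTDSS1* (r = 0.809 and 0.769), *PNPLA2* with *LIPE* (r = 0.573), *AGPAT9* with *GK* (r = 0.501), and *LPIN1* with *PPARD* (r = 0.549).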

How the data were processed

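The authors hybridised 1 muscle RNA sample per pig to a 1-colour expression array and deposited log2 values normalized with GCRMA, in a version that these sources do not state. They kept probes with over 20% of values beyond 1.5 times the median, which 98.0% of the deposited 5493 probes met when recomputed on the deposited values (*PNPLA2*, with 19.6%, did not). The 44 control probes were left out and the other 5449 were tested. No value column was left unused. Array medians ran from 6.20 to 6.68, and intensities carry no read depth. Per probe, sex, slaughter batch and carcass weight were fitted together with limma 3.58.1 in R 4.3.3, with Benjamini-Hochberg adjustment over all probes and a threshold of 0.05. Relations used residuals of that model, with 100000 two-sided permutations (20000 for the alternatives) in numpy 2.4.6 and scipy 1.17.1. The members and gene lists were chosen with earlier results of these data known. Named genes were, for each member, the 3 with the largest positive and the 3 with the largest negative partial correlation, and list genes past the test. A gene with several probes was represented by the one with the highest mean. The code was tested on simulated data. Pigs were treated as independent, without the pedigree. Alternatives covered quantile normalization, array weights, covariates, principal components, single batches and sexes, the second probe and arrays left out.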

Additional observations from a re-analysis of the deposited data

Results flagged for a closer look

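In batch 1 females the second *PNPLA2* probe had 1 pig far above the others, at 6.481 log2 units where the next of the 8 pigs had 3.09. It was the only such case among 18 looked at, 6 probes in each of the 3 groups of a sex and a batch with 4 to 10 pigs, and chance gives about 1 in 20. The pig also had the highest actin difference of batch 1, at -0.62 beside a batch mean of -1.28, and the highest *AGPAT2* value there, at 5.89. The cause was not tested.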

How the results depend on the processing

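Of the counts of members, pairs and related probes, 90 alternative values stayed within 1.5 times the main one and 34 did not. The sex difference passed for 2 members in all pigs, 0 in batch 3 alone, 0 in batch 1 alone and 1 in batch 2 alone, and was 0.129 for *GPAT4* in batch 3. Quantile normalization gave 5 members between batches 3 and 2 (3 without it), 2 between batches 3 and 1 (1 without it), 3 pairs (6 without it), 528 probes related to *LPIN1* and 266 to *PNPLA2*. It turned the sex difference of *PNPLA2* (0.0286), batch 1 minus batch 2 of *LPIN1* (0.144), the change of the sex difference in *LPIN1* (-0.0485) and *AGPAT2* (-0.0409), and r of *LPIN1* with *AGPAT2* (-0.0396) and of *PNPLA2* with *AGPAT9* (-0.0297). With age added, 2 members passed between batches 1 and 2 (4 without it) and 0 between batches 3 and 1, batch 1 minus batch 2 of *LPIN1* was 0.107, batch 3 minus batch 1 was 0.0044 for *AGPAT2* and 0.64 for *AGPAT9*, and the weight slope of *GPAT4* was -0.0014. With 2 principal components added, 2 members passed between batches 3 and 1, related probes numbered 477 for *LPIN1*, 1259 for *AGPAT2*, 72 for *GPAT4* and 600 for *PNPLA2*, and r of *LPIN1* was -0.189 with *AGPAT2*, -0.266 with *GPAT4* and -0.0159 with *PNPLA2*. With the actin difference added, 837 probes were related to *PNPLA2* and 360 to *AGPAT9*, batch 1 minus batch 2 of *LPIN1* was 0.0188, the weight slope of *GPAT4* was -0.0066 and r of *LPIN1* with *AGPAT2* was -0.0026.

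Without covariates, related probes numbered 954 for *LPIN1*, 4270 for *GPAT4*, 2403 for *PNPLA2* and 3203 for *AGPAT9*, r of *AGPAT9* was -0.193 with *AGPAT2* and -0.0156 with *PNPLA2*, the weight slope passed for 3 members (0 with them) and was -0.012 for *AGPAT9*. Array weights gave 1 member with a weight slope and 0.0311 for *AGPAT2* between batches 3 and 1. In batch 3 alone 0 pairs passed, and r was -0.125 for *LPIN1* with *GPAT4* and -0.0052 for *AGPAT2* with *PNPLA2*. In batch 1 alone 0 pairs passed, r of *LPIN1* was -0.604 with *AGPAT2*, -0.0267 with *GPAT4* and -0.498 with *PNPLA2*, and the weight slope of *AGPAT9* was -0.0688. In batch 2 alone 57 probes were related to *AGPAT9*, r of *AGPAT9* was -0.0539 with *AGPAT2* and -0.11 with *PNPLA2*, the weight slope was -0.0084 for *LPIN1* and -0.079 for *GPAT4*, and the age slope of *AGPAT2* was 0.0545. In females alone 0 probes were related to *LPIN1* and 27 to *AGPAT9*, and r of *LPIN1* was -0.0029 with *AGPAT2* and -0.0079 with *PNPLA2*. In males alone related probes numbered 1211 for *AGPAT2*, 1648 for *GPAT4*, 131 for *PNPLA2* and 333 for *AGPAT9*, 1 pair passed and r of *PNPLA2* with *AGPAT9* was -0.0254. The second *PNPLA2* probe gave -2.62 between batches 3 and 2 and r = -0.126 with *AGPAT9*. Without the 2 farthest pigs 3 pairs passed and r of *PNPLA2* with *AGPAT9* was -0.008. The causes were not tested, and subsets of batch or sex hold fewer pigs. The pigs share parents, and p-values that ignore this may be too small.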
